A study of Drosophila melanogaster with 6 samples.

Results

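Glycolysis splits glucose into pyruvate in the cytosol and yields ATP and NADH. Hexokinase traps the sugar, phosphofructokinase commits it to breakdown, and a lower chain from aldolase to pyruvate kinase handles the cleaved sugars and recovers the ATP. Lactate dehydrogenase turns pyruvate into lactate and gives back the NAD+ that the chain consumes, while mitochondria burn the pyruvate that is not used this way. In the fly, urine is made by the Malpighian tubules, which secrete it with a proton pump that runs on ATP.

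Transcripts of 10 glycolysis enzymes were followed here in tubules of Drosophila melanogaster with and without gut tumors. They were picked by gene symbol, with earlier results of these data known: the hexokinases Hex-A and Hex-C, the phosphofructokinase Pfk, the aldolase Ald1, the triosephosphate isomerase Tpi, the glyceraldehyde-3-phosphate dehydrogenases Gapdh1 and Gapdh2, the phosphoglycerate kinase Pgk, the enolase Eno and the lactate dehydrogenase Ldh. All 10 were found among the 17611 genes of the count table, and all 10 passed the filter on low counts. In the tumor group the driver esg-GAL4 was combined with UAS-GFP, tub-GAL80TS and UAS-yki3SA, all heterozygous. The yki3SA transgene makes the growth-promoting coactivator Yorkie constitutively active. The control group had esg-GAL4, UAS-GFP and tub-GAL80TS, also heterozygous, but not UAS-yki3SA. Virgin flies of both groups spent 6 to 8 days at 18 °C and then 8 days at 29 °C, the temperature at which the GAL80 repressor fails and GAL4 acts. RNA came from 80 tubules of each genotype, and each group had 3 libraries.

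The esg driver acts in progenitor cells of the gut and is also known to act in the stem cells of the tubule, so an effect of the gut tumor and an effect of the transgene within the tubule cannot be told apart in this design. The labels leave unsaid if the replicates are different batches of flies, so every p-value here rests on library-to-library spread that could be technical. Libraries held 34640437 to 49338340 counts, and the first principal component, with 58.8% of the variance, separated the groups. The gene yki itself averaged 84.1 ± 6.96 CPM in tumor and 74.2 ± 9.24 CPM in control tubules (SD, n = 3 each; adjusted p = 0.331), and esg averaged 3.75 ± 2.63 CPM in tumor and 5.78 ± 0.298 CPM in control tubules (adjusted p = 0.339). CPM are a library's counts on a common per-library total after TMM scaling, which sets the bulk of genes in each library to a common level. Markers of tubule principal cells were abundant, with summed levels of 7531 to 9316 CPM in tumor and 13160 to 16220 CPM in control libraries, so the tissue label was met. Levels are of bulk RNA, in which fewer cells of a type and less RNA per cell cannot be told apart.

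Of the 10 enzymes, Hex-C and Pfk fell in tumor-bearing flies and none rose in edgeR's quasi-likelihood test; at an unadjusted p under 0.05 none was higher either, and none rose by DESeq2 or limma-voom. The other 8 did not pass in either direction. The count of 2 in 10 stands against 13.0% of the 9789 genes tested that were lower and 14.8% that were higher at an adjusted p under 0.05 in edgeR's quasi-likelihood test, or 27.8% in either direction, so the number of calls was near the background. The 10 log2 fold changes had a median of -0.15, beside 0.08 over all genes tested, and 7 of the 10 lay below 0. The groups did not overlap, with tumor lower, for 3 members (Hex-C, Pfk and Eno), against 20.1% of genes tested. For none of the 10 was every tumor library above every control library, as it was for 26.8% of genes.

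**Figure D1:**
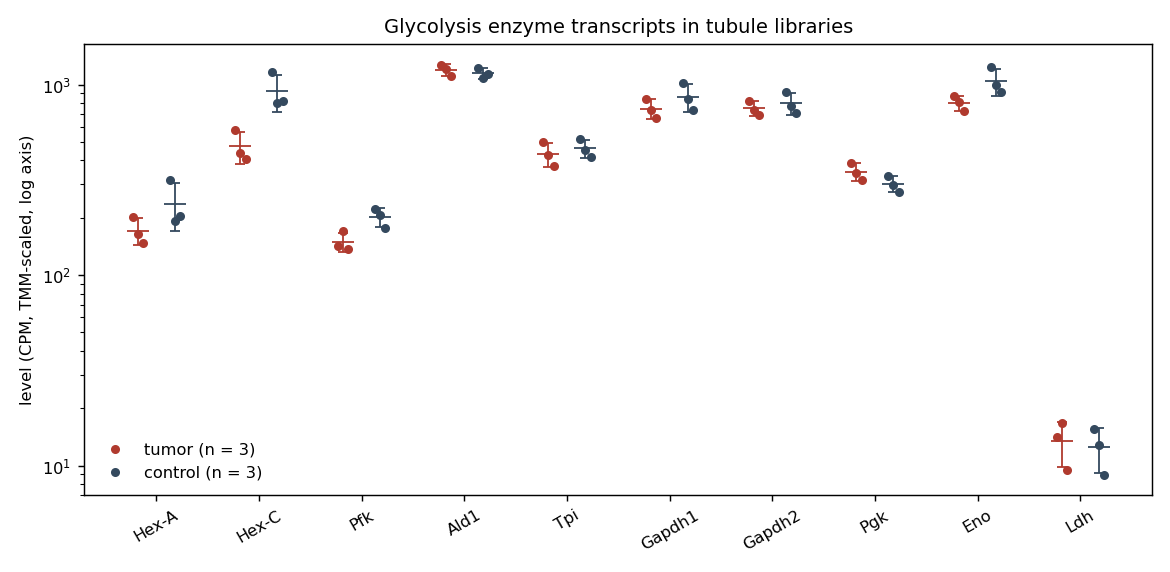
Level of each of the 10 glycolysis enzymes in every tubule library (points), with the mean and SD of each group of 3, in TMM-scaled CPM on a log axis. The tumor and control points stand apart for Hex-C, Pfk and Eno and overlap for the other 7, and Ldh lies far below the rest at 9.52 to 16.7 CPM in tumor and 8.96 to 15.5 CPM in control libraries.

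Hex-C lies on chromosome 2R from 15218837 to 15220329 (BDGP6) and encodes 1 of the 2 hexokinases followed here. It reached 578, 440 and 408 CPM in tumor replicates 1, 2 and 3, against 1158, 798 and 817 CPM in control replicates 1, 2 and 3. Every tumor library lay below every control library, and the highest single value was that of control replicate 1. The means were 475 ± 90.4 CPM in tumor and 924 ± 202 CPM in control tubules (SD, n = 3 each), a 1.95-fold fall with a log2 fold change of -0.96 ± 0.20 (SE; 95% interval -1.42 to -0.51; adjusted p = 0.00994). Hex-C passed in 15 of 16 alternative analyses, among them all 6 that left out 1 library, and its log2 fold change ranged from -1.18 to -0.67. A test against a fold of 1.5 was the exception, with an adjusted p of 0.118.

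Hex-A, the other hexokinase, lies on chromosome X from 9585675 to 9589813. Its levels were 202, 164 and 147 CPM in the tumor libraries and 315, 192 and 205 CPM in the control libraries. The groups overlapped, since tumor replicate 1 was above control replicate 2, and control replicate 1 stood well above the rest of its group. The log2 fold change was -0.47 ± 0.21 (95% interval -0.97 to 0.02; adjusted p = 0.133), and without control replicate 1 it was -0.22 with an adjusted p of 0.382.

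Pfk, on chromosome 2R from 10109740 to 10117457, encodes the enzyme that commits fructose 6-phosphate to glycolysis. It reached 143, 169 and 137 CPM in tumor libraries, against 223, 208 and 176 CPM in control libraries. The groups did not overlap, but tumor replicate 2 and control replicate 3 were close. The fall was 1.35-fold, with a log2 fold change of -0.44 ± 0.14 (95% interval -0.75 to -0.12; adjusted p = 0.0486), just under the threshold. The call was lost in 8 of 16 alternatives: with library totals alone as the scaling (adjusted p = 0.365), without a filter on low counts (0.0600), against a fold of 1.5, and without tumor replicate 1 (0.10), tumor replicate 2 (0.0503), tumor replicate 3 (0.120), control replicate 1 (0.133) or control replicate 2 (0.0895).

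Between hexokinase and Pfk stands Pgi, the glucose-6-phosphate isomerase, which is not among the 10. Its levels were 422, 381 and 382 CPM in tumor and 791, 608 and 445 CPM in control tubules, with no overlap and a wide spread among the controls. Pgi fell 1.56-fold (log2 fold change -0.64 ± 0.20, adjusted p = 0.0484). This call was likewise lost in 8 of 16 alternatives, among them those without tumor replicate 1, 2 or 3 (adjusted p = 0.0747, 0.122 and 0.103), without control replicate 1 or 2 (0.127 and 0.0854), and with library totals alone (0.159). Of the genes that passed at the first 3 steps of the chain, only Hex-C kept its call without any 1 library.

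The aldolase Ald1, which cleaves fructose 1,6-bisphosphate, lies on chromosome 3R from 26254069 to 26261591. It had 1265, 1209 and 1103 CPM in tumor libraries and 1228, 1078 and 1134 CPM in control libraries. The groups were interleaved, 8.87% of the exonic length is shared with an antisense gene, and the log2 fold change of 0.06 ± 0.12 had a 95% interval of -0.22 to 0.33 (adjusted p = 0.757). The triosephosphate isomerase Tpi, on chromosome 3R from 30132981 to 30134599, interconverts the 2 products of that cleavage. Tpi had 499, 427 and 372 CPM in tumor and 518, 453 and 418 CPM in control tubules, again overlapping (log2 fold change -0.10 ± 0.15, 95% interval -0.44 to 0.25, adjusted p = 0.665).

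Gapdh1, on chromosome 2R from 7791901 to 7793380, and Gapdh2, on chromosome X from 15868145 to 15869661, encode the enzyme that makes the NADH of the chain. Gapdh1 levels were 841, 737 and 664 CPM in tumor libraries, against 1023, 840 and 732 CPM in control libraries (log2 fold change -0.21 ± 0.16, 95% interval -0.58 to 0.16, adjusted p = 0.360). For Gapdh2 they were 823, 736 and 696 CPM in tumor and 914, 770 and 713 CPM in control libraries (log2 fold change -0.09 ± 0.14, 95% interval -0.41 to 0.23, adjusted p = 0.671). Both overlapped between groups. The 2 genes are close copies, so how the authors' counting split reads between them is uncertain.

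Pgk, on chromosome 2L from 2746880 to 2753068, encodes the first ATP-yielding step of the lower chain. With 390, 342 and 316 CPM in tumor and 332, 298 and 274 CPM in control tubules, it had the largest positive log2 fold change of the 10 under TMM scaling, 0.21 ± 0.13 (95% interval -0.09 to 0.52, adjusted p = 0.268), and its groups overlapped. The enolase Eno lies on chromosome 2L from 1724768 to 1729636. It had 871, 809 and 725 CPM in tumor libraries and 1232, 991 and 908 CPM in control libraries, so that every tumor library was below every control library. Of its exonic length 9.74% is shared with Rrp40 on the other strand. Its log2 fold change of -0.38 ± 0.15 (95% interval -0.73 to -0.04) missed the threshold (adjusted p = 0.0926), and it passed in 2 of 16 alternatives, with DESeq2 (0.0259) and with a filter of 5 CPM in 3 libraries (0.0495).

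The remaining steps of the lower chain, outside the 10, gave values of a like size. The phosphoglycerate mutase Pglym78 averaged 220.0 ± 12.5 CPM in tumor and 276 ± 24.9 CPM in control tubules (log2 fold change -0.33 ± 0.12, adjusted p = 0.0753). For the pyruvate kinase PyK the means were 594 ± 40.3 CPM in tumor and 729 ± 83.7 CPM in control tubules (log2 fold change -0.30 ± 0.13, adjusted p = 0.127). Neither passed, although in both genes all tumor libraries were below all control libraries, and both passed with DESeq2 (0.0151 and 0.0405). Over the whole chain of 13 genes, 3 fell, none rose, the groups stood apart with tumor lower in 6, and the median log2 fold change was -0.30; among all genes tested 13.0% fell, 14.8% rose and 20.1% stood apart with tumor lower.

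Ldh, on chromosome 3L from 6259105 to 6262694, encodes the enzyme that reduces pyruvate to lactate. It had 14.0, 16.7 and 9.52 CPM in tumor and 15.5, 12.9 and 8.96 CPM in control tubules. The groups overlapped fully, and the log2 fold change of 0.11 ± 0.27 had the widest interval of the 10 (95% interval -0.51 to 0.72, adjusted p = 0.800). With an interval of this width these libraries do not show that Ldh was equal in the groups.

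**Figure D2:**
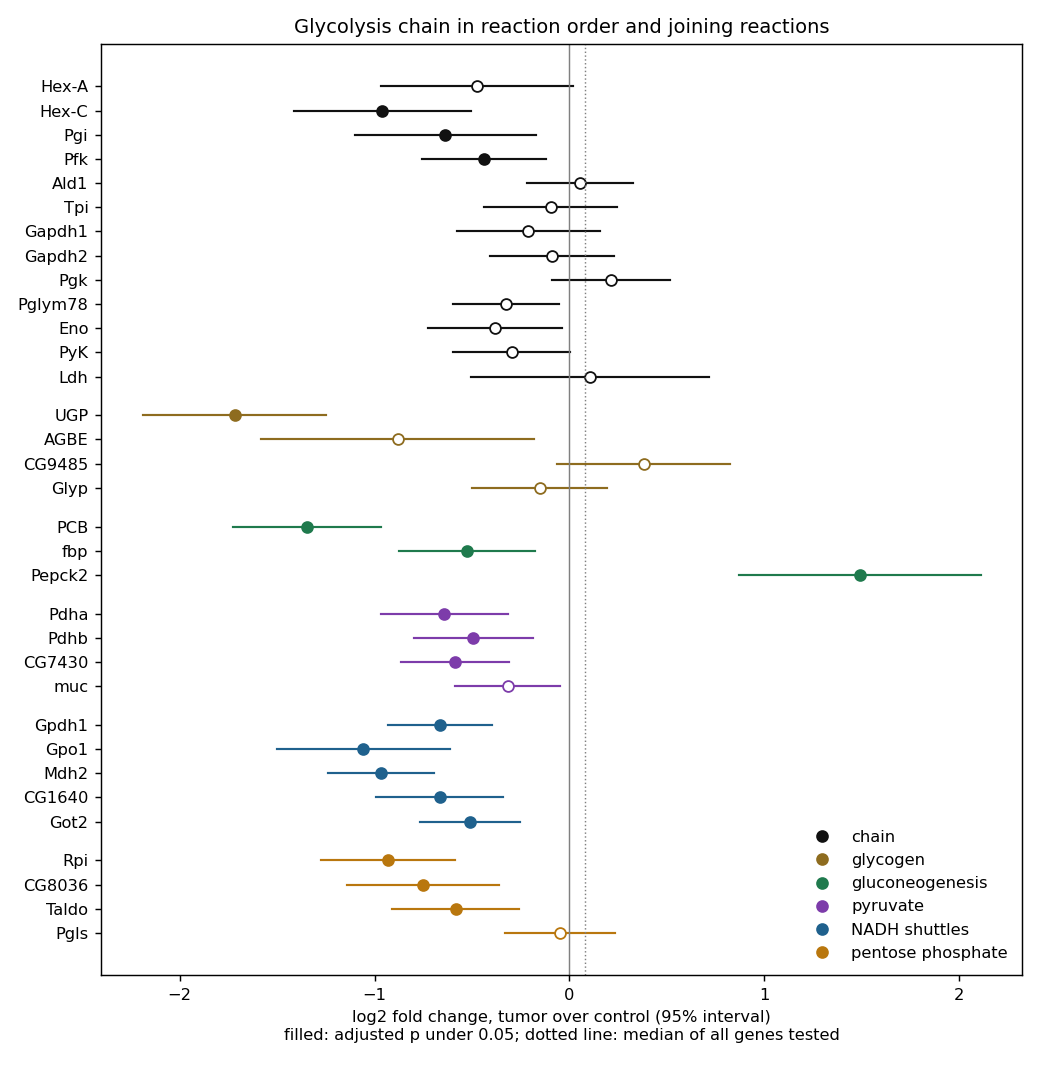
Log2 fold change, tumor over control, with its 95% interval for the 13 chain genes in reaction order and for named genes of joining reactions; filled points have an adjusted p under 0.05 and the dotted line marks the median of all genes tested, 0.08. In the chain the filled points are Hex-C, Pgi and Pfk. UGP, PCB, Gpo1 and, narrowly, Mdh2 lie further to the left than any chain gene, and Pepck2 is the 1 filled point to the right of 0. Outside the chain up to 4 genes per list were drawn for their smallest adjusted p, besides Got2, so the plot does not show what share of a list passed.

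Levels per kilobase of exon were used to set the enzymes beside each other. The length joined all annotated exons of a gene, whichever transcript was expressed, so the order and the ratios between genes depend on it. In CPM, without length, Ald1 (1147) and Eno (1044) averaged above Hex-C (924) in control tubules. In tumor tubules the order was Gapdh2 (521 CPM per kb), Gapdh1 (505), Hex-C (318), Ald1 (313), Tpi (278), Eno (216), Pgk (165), Hex-A (41.3), Pfk (34.2) and Ldh (6.90). In control tubules Hex-C came first with 619 CPM per kb, followed by Gapdh1 (584), Gapdh2 (554), Ald1 (301), Tpi (297), Eno (281), Pgk (143), Hex-A (57.4), Pfk (46.2) and Ldh (6.41). Hex-C moved in this order, at position 3 in tumor and position 1 in control tubules. Its range of 273 to 387 CPM per kb in tumor libraries overlapped that of Ald1, and its range of 534 to 775 CPM per kb in control libraries overlapped those of both Gapdh genes. Ald1 and Tpi overlapped as neighbors in both groups, as did Hex-A and Pfk, and Ldh was below all others in every library.

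The members were thus unequal in abundance. Gapdh1, Gapdh2 and Hex-C ranked at percentiles 98.0, 97.9 and 97.7 of the level per kilobase among genes tested. Ald1, Tpi, Eno and Pgk followed at 96.9 to 94.4. Hex-A and Pfk stood at 85.2 and 82.9, and Ldh at 44.8, near the middle of the tubule transcriptome.

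Shares within a library, which do not depend on how libraries are scaled, were taken as well. This measure was added after the values were seen and has no test. Hex-C made up 14.4%, 12.5% and 12.7% of the summed per-kilobase level of the 10 in tumor libraries, against 23.0%, 19.7% and 21.3% in control libraries. Its mean share was 13.2% ± 1.06 in tumor and 21.3% ± 1.64 in control tubules (SD, n = 3 each). Pgk took 6.87%, 6.86% and 6.97% in tumor and 4.65%, 5.20% and 5.05% in control libraries, a separation far wider than the spread within a group.

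Since the share given up by Hex-C must appear elsewhere, shares were taken again over the other 9. Pgk kept a larger share in tumor libraries, 7.95% ± 0.101 against 6.31% ± 0.235 in control libraries. Eno had the smaller share in tumor libraries, 10.4% ± 0.171 against 12.3% ± 0.346 in control libraries, with no overlap. Gapdh2 stood narrowly apart as larger in tumor libraries (25.1% ± 0.556 against 24.4% ± 0.0562), and Hex-A and Pfk as smaller. Ald1 and Tpi, whose shares of all 10 were larger in tumor libraries, overlapped between groups once Hex-C was left out.

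**Figure D3:**
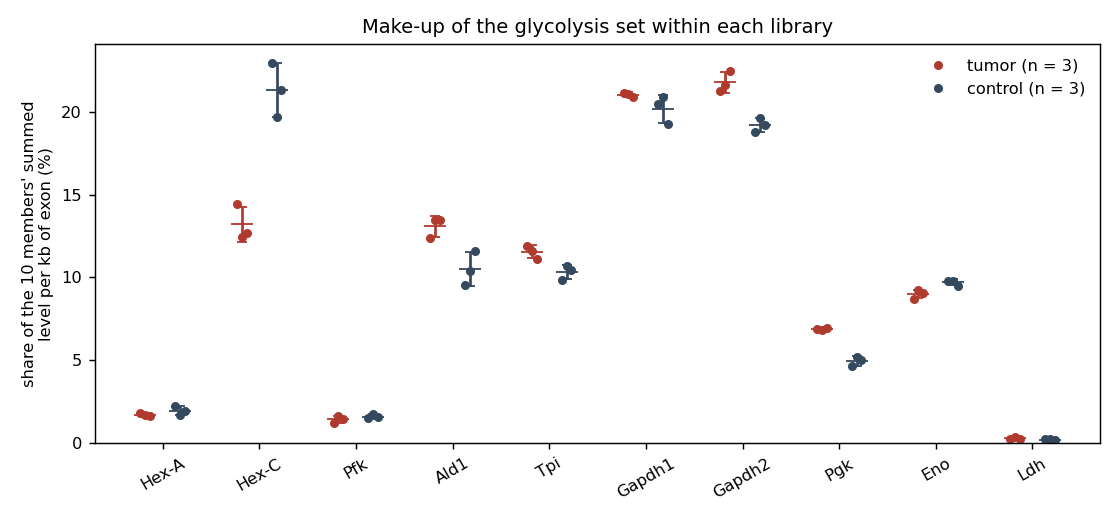
Share of each enzyme in the summed level per kilobase of the 10 members within each library, in percent, with points for libraries and bars for the mean and SD of each group of 3. Hex-C lies at 12.5% to 14.4% in tumor and 19.7% to 23.0% in control libraries, and Pgk, Ald1, Tpi and Gapdh2 are higher in tumor libraries.

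In 4 comparisons of a single value per library, 3 concerned ratios and 1 the summed level. An exact two-sided permutation test of 3 libraries against 3 cannot give a p below 0.10, so none could pass. The ratio of Hex-C to Hex-A per kilobase was 7.94, 7.45 and 7.67 in tumor libraries, against 10.2, 11.5 and 11.0 in control libraries. The means were 7.68 ± 0.246 in tumor and 10.9 ± 0.668 in control libraries, a log2 difference of -0.51 with the smallest p the test allows (exact p = 0.10; 0.133 adjusted over the 4). Hex-C remained the main hexokinase transcript in both groups, at 88.5% ± 0.326 of both in tumor and 91.6% ± 0.480 in control libraries. Summed, the 2 hexokinases averaged 359 ± 67.2 CPM per kb in tumor and 676 ± 152 CPM per kb in control tubules.

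The ratio of Gapdh2 to Gapdh1 was 1.004, 1.02 and 1.08 in tumor libraries and 0.917, 0.941 and 0.999 in control libraries, so the groups nearly touched (log2 difference 0.12, exact p = 0.10, adjusted 0.133). The ratio of Ldh to Pdha set the enzyme that makes lactate against the pyruvate dehydrogenase subunit that sends carbon to the mitochondrion. It was 0.0430, 0.0581 and 0.0345 in tumor libraries, against 0.0292, 0.0315 and 0.0202 in control libraries. All tumor ratios were higher, with a log2 difference of 0.74 (exact p = 0.10, adjusted 0.133). Pdha fell in this comparison while Ldh did not pass, and the Ldh transcript stayed a small fraction of the Pdha transcript in every library.

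**Figure D4:**
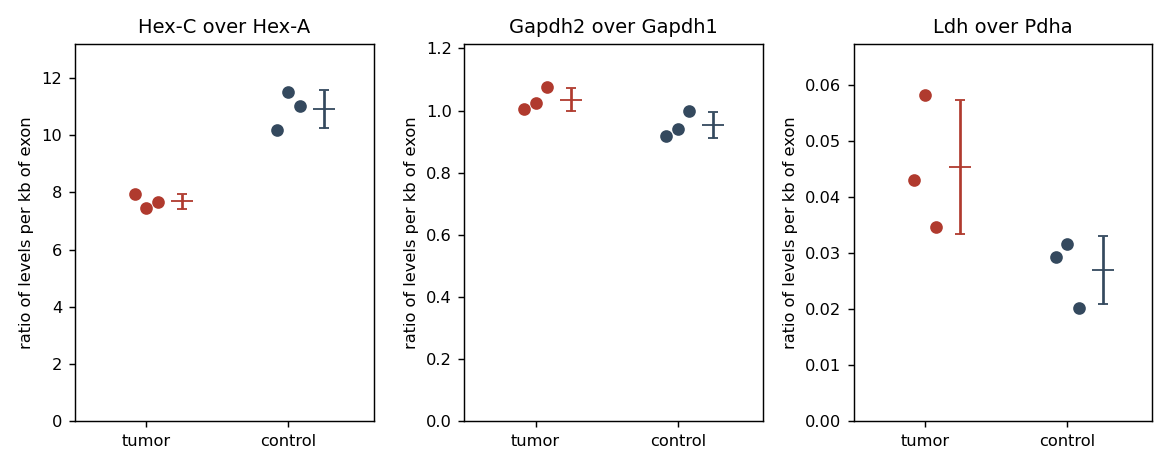
Ratios of levels per kilobase of exon within each library for Hex-C over Hex-A, Gapdh2 over Gapdh1 and Ldh over Pdha, with each library as a point beside the mean and SD of its group of 3. Hex-C over Hex-A lies at 7.45 to 7.94 in tumor and 10.2 to 11.5 in control libraries, and Ldh over Pdha is higher in all 3 tumor libraries.

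The summed level of the 10 was 5624, 5048 and 4577 CPM in tumor and 6957, 5641 and 5387 CPM in control libraries, which overlapped (log2 difference -0.23, exact p = 0.20, adjusted 0.20). As a share of all counts, without TMM scaling, the 10 held 0.560% ± 0.0321 in tumor and 0.541% ± 0.0552 in control libraries, and the log2 difference on that scale was 0.05. The sign of the sum therefore turned with the scaling. Library totals alone set the median of all genes at 0.37 and TMM set it at 0.08, and the members are to be read relative to that median. With library totals alone, Hex-C still fell (log2 fold change -0.67, adjusted p = 0.0119), while Ald1 (0.34, adjusted p = 0.0169) and Pgk (0.50, adjusted p = 0.00886) passed as higher. On that scale 8.48% of all genes were lower and 31.5% higher.

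**Figure D5:**
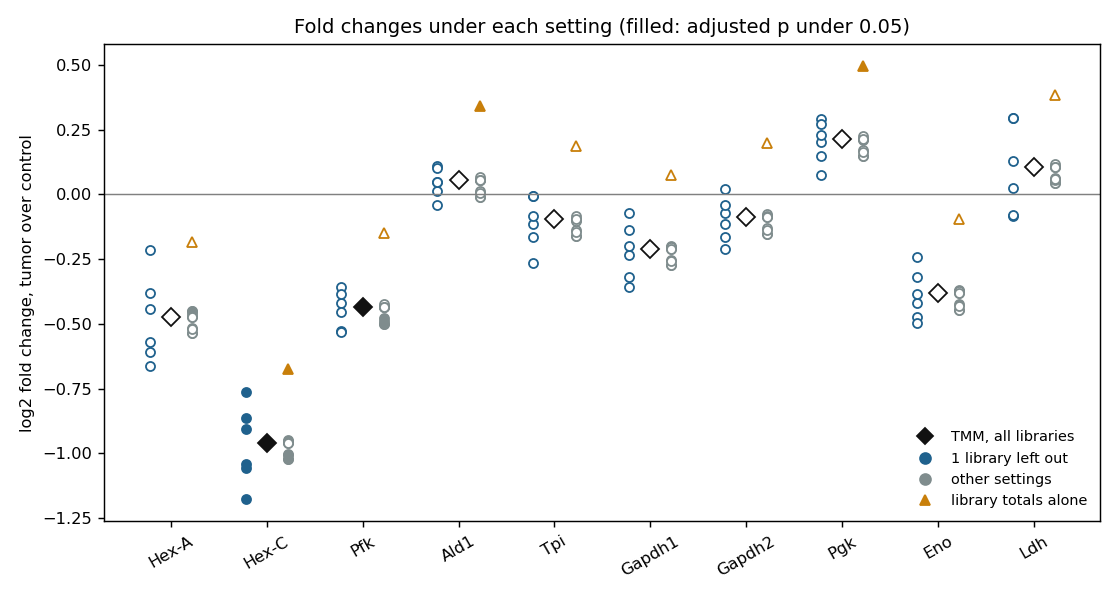
Log2 fold change of each of the 10 members under TMM with all libraries (diamonds), with 1 library left out, under other settings and with library totals alone (triangles); filled symbols have an adjusted p under 0.05. Hex-C lies at -0.67 or below in every setting, Pfk is filled in 8 of its 16 alternatives, and the triangles of Ald1 and Pgk are filled above 0.

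Within groups the members rose and fell with the library. Control replicate 1 was the highest of its group for 10 of 10 members, as it was for 37.7% of all genes tested, and tumor replicate 3 was the lowest of its group for 10 of 10, as it was for 33.7% of genes. The genes whose profile over the 6 libraries was nearest to the mean of the members were found by the root-mean-square difference of centered log2 levels. They were Got1 (0.03), a cytosolic aspartate aminotransferase of the malate-aspartate shuttle, CG31974 (0.03), tzn (0.05), orion (0.05) and comm3 (0.05), against a median of 0.42 over all genes. The 6 libraries fall into 2 groups, so this likeness is a description.

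Paralogues of the chain's enzymes, members or not, were scarce. Of 10 such genes 7 did not pass the filter, with at most 19 counts in any library, and Hex-t2 and Pglym87 had none. CG7362, annotated as a pyruvate kinase, fell to 6, 2 and 1 counts in tumor libraries, against 19, 56 and 34 in control libraries (log2 fold change -3.79 ± 0.88, adjusted p = 0.0165), but the call was lost without tumor replicate 2 (adjusted p = 0.0587). CG7069, likewise annotated as a pyruvate kinase, and CG12229 did not pass (adjusted p = 0.725 and 0.806).

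Reactions that feed hexose phosphates into the chain or draw them off were compared next. The counts in this list and in those that follow stand against the same 13.0% lower and 14.8% higher among all genes. UGP, which makes UDP-glucose for glycogen and trehalose synthesis, had 371, 300.3 and 252 CPM in tumor and 1082, 778 and 1178 CPM in control libraries. It fell 3.29-fold (log2 fold change -1.72 ± 0.20, adjusted p = 9.25e-04) and passed in all 16 alternatives, although 21.4% of its exonic length is shared with other genes. It was the 1 gene of 7 in the glycogen list that passed. The branching enzyme AGBE (log2 fold change -0.88 ± 0.30, adjusted p = 0.0652), the debranching enzyme CG9485 (0.38 ± 0.19, 0.177) and the glycogen phosphorylase Glyp (-0.15 ± 0.15, 0.489) did not, and the list's median was -0.05. AGBE passed as lower in 4 of 16 alternatives, with DESeq2 (0.00507), a replicate block (0.00785) and a filter of 5 CPM (0.0451) and without control replicate 2 (0.0408), and its log2 fold change without 1 library ranged from -1.14 to -0.51 (without control replicate 1).

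Of 5 gluconeogenesis genes 3 were tested, and all 3 passed, in opposite directions. PCB, the pyruvate carboxylase, had 255, 242 and 217 CPM in tumor and 736, 501 and 579 CPM in control libraries, a 2.55-fold fall (log2 fold change -1.35 ± 0.16, adjusted p = 9.98e-04). The fructose bisphosphatase fbp, which reverses the Pfk step, averaged 126 ± 13.5 CPM in tumor and 182 ± 30.1 CPM in control tubules (log2 fold change -0.53 ± 0.15, adjusted p = 0.0350). Its call was lost without tumor replicate 2 or 3 (adjusted p = 0.108 and 0.0931), without control replicate 1 or 3 (0.10 and 0.0916), and with library totals alone (0.172). Pepck2, 1 of the 2 phosphoenolpyruvate carboxykinases on the list, had 13.3, 9.89 and 7.33 CPM in tumor and 3.22, 4.19 and 3.43 CPM in control libraries. At this low level it rose 2.81-fold (log2 fold change 1.49 ± 0.27, adjusted p = 0.00587) and passed in all 16 alternatives. The other, Pepck1, had 0 counts in every library. Of the exonic length of Pepck1 100% is shared with CG45087 on the same strand, so its reads may not have been countable.

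Downstream of pyruvate, 3 of 8 genes fell and none rose, with a median of -0.42. Pdha, the alpha subunit of pyruvate dehydrogenase, had 362, 317 and 305 CPM in tumor and 589, 453 and 493 CPM in control libraries (log2 fold change -0.64 ± 0.14, adjusted p = 0.0129). CG7430, the dihydrolipoamide dehydrogenase subunit, averaged 379 ± 30.8 CPM in tumor and 569 ± 34.2 CPM in control tubules (-0.59 ± 0.12, adjusted p = 0.00977). The beta subunit Pdhb averaged 320 ± 37.2 CPM in tumor and 449.9 ± 39.0 CPM in control tubules (-0.49 ± 0.13, adjusted p = 0.0285). The Pdhb call was lost without tumor replicate 2 or 3 (adjusted p = 0.0866 and 0.0880), without control replicate 1 or 3 (0.0860 and 0.0561), and with library totals alone (0.147). The acetyltransferase subunit muc did not pass (-0.32 ± 0.12, adjusted p = 0.0790).

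The glycerol phosphate and malate-aspartate shuttles, which carry the electrons of NADH made by Gapdh into the mitochondrion, were listed with an alanine shuttle. Of 9 genes tested on this list 5 were lower and none higher, with a median of -0.51. With library totals alone, which put 31.5% of all genes higher, 2 of the list passed as higher. The mitochondrial malate dehydrogenase Mdh2 had 837, 776 and 714 CPM in tumor and 1603, 1473 and 1470 CPM in control libraries, a 1.95-fold fall (log2 fold change -0.97 ± 0.12, adjusted p = 0.00102). In the glycerol phosphate shuttle, the cytosolic Gpdh1 averaged 874 ± 18.0 CPM in tumor and 1388 ± 115 CPM in control tubules (-0.67 ± 0.12, adjusted p = 0.00495). Its mitochondrial partner Gpo1 averaged 385 ± 57.7 CPM in tumor and 801 ± 188 CPM in control tubules (-1.06 ± 0.19, adjusted p = 0.00614). The alanine aminotransferase CG1640 fell by 0.67 ± 0.14 on the log2 scale (adjusted p = 0.0115), as did the mitochondrial aspartate aminotransferase Got2, named here after its value was seen, by 0.51 ± 0.11 (0.0128; lost with library totals alone). Of the exonic length of Gpdh1, 22.1% is shared with a noncoding gene, and counting by strand is not stated.

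In the pentose phosphate pathway 3 of 7 genes tested fell and none rose. Rpi, the ribose 5-phosphate isomerase, averaged 112 ± 9.61 CPM in tumor and 213 ± 36.0 CPM in control tubules (log2 fold change -0.93 ± 0.15, adjusted p = 0.00359). The transketolase CG8036 averaged 1043 ± 67.8 CPM in tumor and 1756 ± 366 CPM in control tubules (-0.75 ± 0.17, adjusted p = 0.0142). Taldo, the transaldolase, averaged 416 ± 22.1 CPM in tumor and 623 ± 92.8 CPM in control tubules (-0.58 ± 0.14, adjusted p = 0.0188), but its call was lost without tumor replicate 2 or 3 (adjusted p = 0.0625 and 0.0539), without control replicate 1 (0.0606) and with library totals alone (0.0977). The other 4 were near 0, namely the epimerase Rpe (-0.01 ± 0.12, adjusted p = 0.950), the lactonase Pgls (-0.05 ± 0.12, 0.804), and the dehydrogenases Zw (-0.06 ± 0.18, 0.837) and Pgd (0.05 ± 0.14, 0.823), and the median of the list was -0.06. Zw, Pgd and Rpe were named after their values were seen, and 16.6% of the exonic length of Rpi is shared with other genes.

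The deposited table carries its own pathway annotation, which puts 53 genes under glycolysis and gluconeogenesis, and counts over it were added after the data were seen. Of these, 39 were tested, 15 fell and 1 rose, with a median log2 fold change of -0.33, against 13.0% lower and 14.8% higher among all genes tested. Apart from the members, 13 of 29 genes tested fell. They were Pgi, fbp, Pdha, Pdhb, CG7430, CG7362, the alcohol dehydrogenase gene Adh, the aldehyde dehydrogenase genes Aldh, Aldh7A1 and CG31075, the inositol polyphosphate phosphatase gene Mipp1, CG10467 and CG32444. The 1 that rose was Pepck2. CG31075 passed only just (adjusted p = 0.0499), and its groups overlapped, with tumor replicate 2 at 36.2 CPM and control replicate 3 at 34.0 CPM. Of the exonic length of Adh 93.9% is shared with Adhr on the same strand, and of that of Aldh7A1 35.8% with genes on the other strand, so the counts of both are uncertain. CG32444, annotated as an aldose 1-epimerase, fell 5.13-fold, with 148 ± 33.0 CPM in tumor and 759.9 ± 69.4 CPM in control tubules (log2 fold change -2.36 ± 0.18, adjusted p = 1.40e-04), although 28.6% of its exonic length is shared with an antisense gene. CG10467, annotated likewise, averaged 183 ± 19.2 CPM in tumor and 402 ± 63.8 CPM in control tubules (-1.14 ± 0.15, adjusted p = 0.00149). Both were named after their values were seen. Without tumor replicate 2 the count of 15 became 8, without tumor replicate 3 or control replicate 1 it became 9, and scaling by library totals alone left 9 lower and 5 higher.

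Among transcription factors and sensors known to act on glycolysis genes, 2 of 8 rose, 2 fell and the median was 0.44, against 14.8% higher and 13.0% lower among all genes tested. Hph, the prolyl hydroxylase that marks the HIF-alpha protein for breakdown, had 421, 327 and 343 CPM in tumor and 222, 185 and 177 CPM in control libraries (log2 fold change 0.90 ± 0.15, adjusted p = 0.00395). It passed without any 1 library. The HIF-alpha gene sima did not pass (0.40 ± 0.14, adjusted p = 0.0704), although every tumor library was above every control library. With library totals alone, which put 31.5% of all genes higher, sima passed as higher (0.69, adjusted p = 0.00367). Its partner tgo rose at a low level, averaging 29.1 ± 4.63 CPM in tumor and 19.0 ± 1.25 CPM in control tubules (0.61 ± 0.15, adjusted p = 0.0190). The tgo call was lost without tumor replicate 1 or 3 (adjusted p = 0.0634 and 0.0587) or control replicate 3 (0.0695).

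The sugar-sensing factor Mondo averaged 274 ± 29.7 CPM in tumor and 418 ± 64.0 CPM in control tubules (log2 fold change -0.61 ± 0.15, adjusted p = 0.0219), and its partner bigmax averaged 52.9 ± 6.00 CPM in tumor and 80.5 ± 8.67 CPM in control tubules (-0.61 ± 0.13, adjusted p = 0.0122). Both calls were lost with library totals alone (adjusted p = 0.118 and 0.0777), and that of Mondo also without tumor replicate 1 (0.0523) or control replicate 1 or 3 (0.0696 and 0.0738). ERR, which raises glycolysis gene expression in fly larvae, gave -0.55 ± 0.26 (adjusted p = 0.149), and without control replicate 2 it passed as lower (-0.80, 0.0126). The Gli-similar factor sug gave 0.57 ± 0.32 (0.232), but it passed as higher without control replicate 3 (1.04, 0.00736) and with a replicate block (0.66, 0.0446). Myc gave 0.48 ± 0.18 (0.0828), with every tumor library above every control library, and passed as higher with library totals alone (0.77, 0.00986). Other genes share 52.2% of the exonic length of ERR and 61.2% of that of Myc.

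Markers of other tissues also differed between the groups. Counts of lower and higher markers, here and in the lists that follow, stand against 13.0% lower and 14.8% higher among all genes tested. Of 23 midgut markers tested 18 were lower and 1 higher, and their summed level was 17.4 to 104 CPM in tumor and 374 to 1014 CPM in control libraries. The most abundant of them, alphaTry, averaged 28.9 ± 24.5 CPM in tumor and 186 ± 110 CPM in control tubules. It did not pass with edgeR (adjusted p = 0.0557), although every tumor library was below every control library. For the 9 fat body genes tested, 5 were lower, with sums of 182 to 360 CPM in tumor and 2480 to 5837 CPM in control libraries, and without the yolk proteins 25.6 to 51.4 CPM in tumor and 252 to 719 CPM in control libraries. The yolk protein gene Yp3 averaged 114 ± 54.1 CPM in tumor and 1777 ± 649.7 CPM in control tubules. The 16 germline and eggshell genes had 12 lower and sums of 4.99 to 12.5 CPM in tumor and 134 to 341 CPM in control libraries, and the eggshell gene Vm26Aa averaged 1.01 ± 1.22 CPM in tumor and 58.3 ± 29.5 CPM in control tubules. Of all the markers on these lists that matched a gene, tested or not, none had 0 counts in every library.

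Markers of the tubule's own cells were also lower in part, with 4 of 8 for principal cells and 2 of 6 for stellate cells, whose sums were 955 to 1093 CPM in tumor and 1241 to 1429 CPM in control libraries. Muscle, which surrounds the tubule and gut, gave sums of 980 to 1146 CPM in tumor and 1017 to 1071 CPM in control libraries. With edgeR 2 of 18 markers were lower and 1 higher, and their median log2 fold change was -0.30. The higher one, Tm1, was the most abundant, averaging 372 ± 23.4 CPM in tumor and 257 ± 30.4 CPM in control tubules (adjusted p = 0.0187). It weighs most in the sums. At an unadjusted p under 0.05 there were 7 lower muscle markers, with DESeq2 6 and with limma-voom 4, against 1 higher each time. Of 13 tested markers of progenitors, hemocytes, enteroendocrine cells and neurons, 0 passed with edgeR, while 1 hemocyte and 1 neuron marker were lower at an unadjusted p under 0.05 and with DESeq2, and 1 neuron marker with limma-voom. The part of these differences in the results for Hex-C, Pfk and the joining genes was not tested.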

How the data were processed

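The authors deposited 1 table of raw read counts per gene, 1 column per library. Per the labels' protocols, poly-A RNA with an integrity number above 7 went into TruSeq libraries for Illumina sequencing. TopHat, Cufflinks and HTSeq are named per the submitters' processing notes, without version or role; the genome build, annotation and strandedness were not given in the sources used here. Names, exonic lengths and coordinates came from Ensembl release 115 (BDGP6) by gene identifier (17552 of 17611 genes).

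Counts were filtered with filterByExpr (minimum count 10, minimum total 15), which left 9789 genes, scaled by TMM and tested with edgeR 4.0.16 (robust quasi-likelihood, two-sided) in R 4.3.3, with Benjamini-Hochberg adjustment over all genes and a threshold of 0.05. The SE is the log2 fold change over the square root of F. A count of 0 allows up to 3 counts, which equal 0.0608 to 0.0866 CPM, for counting error only. DESeq2 1.42.0 and limma-voom 3.58.1 were alternatives, beside other scalings, filters, a replicate block, a fold of 1.5, an adjusted p of 0.01 and leaving out each library. Values per library and figures used Python 3.11.15 with scipy 1.17.1 and matplotlib 3.10.9. The fitting code was tested on simulated data.

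Members and gene lists were chosen with earlier results of these data known. Genes named were the 10 members, the other chain genes, up to 4 with the smallest adjusted p per pathway list, all listed transcription factors, the 3 most abundant markers per list (at most 1 printed per list), yki, esg and the 5 most alike genes. Replicate numbers did not pair libraries (correlations 0.0824, -0.0833 and 0.0580).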

Additional observations from a re-analysis of the deposited data

How the results depend on the processing

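The number of genes called, 2726, became 816 against a fold of 1.5 and 1197 at an adjusted p of 0.01, and lay between 1769 (without control replicate 3) and 2364 with 1 library left out. The count of members that fell, 2, became 3 with DESeq2 and 3 with a filter of 5 CPM in 3 libraries. It became 1 with library totals alone, 1 with no filter, 0 against a fold of 1.5 and 1 at an adjusted p of 0.01. With 1 library left out it lay between 1 and 2. No member rose, but 2 did with library totals alone. Calls over the surrounding lists, 21, became 5 against a fold of 1.5 and 9 at an adjusted p of 0.01, and lay between 16 and 24 with 1 library left out. With library totals alone the log2 difference of the summed level of the 10 turned to 0.0519, and the log2 fold changes of Tpi (0.19), Gapdh1 (0.0752), Gapdh2 (0.20), Glyp (0.14) and Pgls (0.24) turned sign. Ald1 turned to -0.00854 with DESeq2 and -0.00851 with RLE size factors, and with 1 library left out it ranged from -0.0423 to 0.110. On that check Gapdh2 ranged from -0.212 to 0.0214, Ldh from -0.0837 to 0.296, CG7069 from -0.614 to 1.07 and CG12229 from -0.739 to 0.496. CG7069 turned to -0.30 and CG12229 to 0.16 with limma-voom, and to -0.11 and 0.0395 with a replicate block. None of these sign changes carried a call, and their cause was not tested. The libraries share only a replicate number, and not every library correlated best with its own number. With the replicate block 3 members fell, Hex-A among them (-0.45, adjusted p = 0.0382), and 2538 genes were called in all. The member with the fewest reads, Ldh, had 295 to 734 counts per library.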
